A study of Mus musculus with 16 samples.

Results

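The 12 h cultures are 2 of the 16 one-colour arrays in a time course of mouse macrophages turning into osteoclasts, the cells that resorb bone. One was treated with DW, the name the labels give the control treatment, and the other with 1 mM dimethyl αKG, an ester of the tricarboxylic acid cycle intermediate α-ketoglutarate. They were picked by their labelled time alone and were set, within each arm, against the 4 arrays at 6 and 24 h. All 6 arrays hold total RNA of bone marrow-derived macrophages from 5-week-old male C57BL/6 mice, cultured with M-CSF and RANKL. The remaining 10 arrays are 2 at 0 h, with M-CSF and DW but without RANKL, DW at 3, 48 and 72 h, and αKG at 0.5, 1, 3, 48 and 72 h. Each arm and time after 0 h is a single array, so the arms served as the 2 observations of each time. The labels do not state whether each array was a culture or mouse of its own, and a p-value here reflects only how far these arrays spread. Time and any batch that both arms shared at one time cannot be told apart.

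M-CSF acts through the receptor CSF1R and keeps macrophages alive and dividing, in part through ERK signalling, Myc and cyclin D1. RANKL acts through its receptor RANK, encoded by Tnfrsf11a, and switches on NF-kB and AP-1 factors such as Fos, which bring in NFATc1, the main regulator of osteoclast genes. Macrophages at this stage also carry an inflammatory programme of chemokines and cytokines, and a lipid and lysosome programme typical of resting tissue macrophages.

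On the 12 h arrays macrophage markers were high, and osteoclast markers were lower or under the limit used here to leave out dim genes. All 6 macrophage markers had log2 values from 9.97 (Cd14) to 12.88 (Lyz2) on both 12 h arrays. Among the 6 osteoclast markers, Acp5 stood at 7.56 with DW and 7.19 with αKG, Mmp9 at 7.47 and 6.86, Ctsk at 6.33 and 6.32 and Dcstamp at 5.13 and 5.12. Oscar and Calcr lay between 3.84 and 4.03, under the limit of 4.34 below which genes were left out as dim. Dim genes were the lowest 30% by mean value, and 15526 genes were tested.

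The quantity compared is called the departure here. It is the 12 h value minus the mean of the 6 h and 24 h values of the same arm, on the log2 scale, so a departure of 1 is a 2-fold excess over that mean. Because 6, 12 and 24 h are evenly spaced in log time, a gene that moved steadily in log time would have a departure of 0. In limma, with arm and time as factors, 3452 genes (22.2% of those tested) had a departure with an adjusted p under 0.05. Of these 1685 (10.9%) were higher and 1767 (11.4%) lower than the mean of their neighbours. A departure can come from a peak, a trough or a bend, and nearly all of those that passed were peaks or troughs. There were 1563 genes (10.1%) that passed and lay above both the 6 h and the 24 h array in both arms. Another 1618 (10.4%) passed and lay below both in both arms. Over all genes tested, called or not, 43.6% lay outside both neighbours in both arms, and a large departure itself makes that position more likely. At least 2-fold departures numbered 156 higher and 170 lower.

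The 12 h arrays differed more from 24 h than from 6 h. In the same fit 1307 genes (8.42%) passed for 12 h against 6 h, 4260 (27.4%) for 12 h against 24 h, and 2337 (15.1%) for 24 h against 6 h. There were 1021 genes that passed against both neighbours with 1 sign, 536 higher and 485 lower. By the same rule far fewer genes departed at 6 h from 3 and 12 h (86, 0.554%) and at 48 h from 24 and 72 h (62, 0.399%). At 24 h, against 12 and 48 h, 2060 (13.3%) passed. These sets of times share arrays with each other and are given side by side only.

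The arms gave similar departures although they share no array. Over the 15526 genes the departures with DW and with αKG correlated at r = 0.79, across genes, which are not independent replicates, and 71.1% of genes had the same sign in both. The count of calls rested on having both 12 h arrays: 1193 genes passed without the DW array at 12 h and 1223 without the αKG array at 12 h, where a lone array is assumed to vary like the others. With 6 h and 24 h pooled as 1 level, so that their difference goes into the residual, 70 genes passed.

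**Figure D1:**
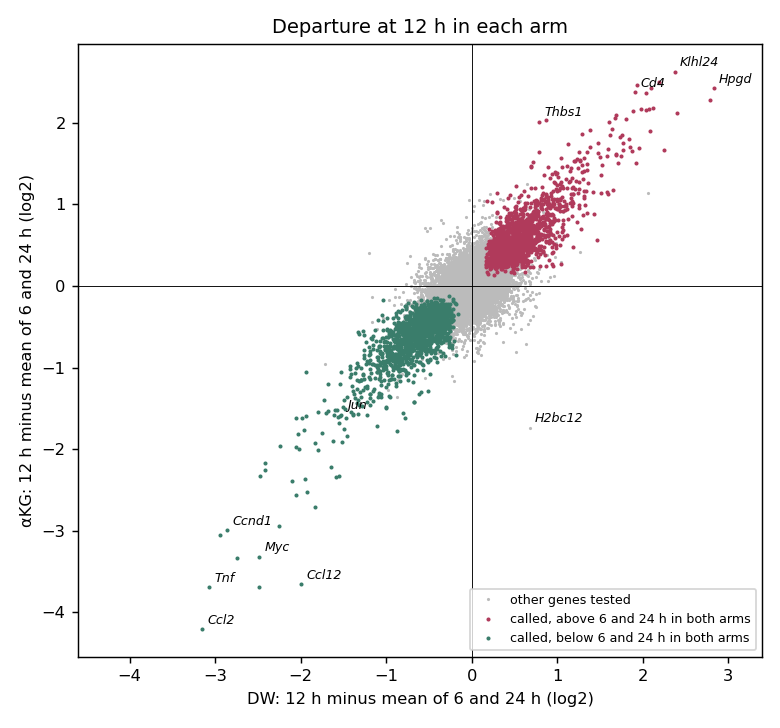
Departure at 12 h (12 h minus the mean of 6 and 24 h, log2) of each of 15526 genes with DW on the x axis and with αKG on the y axis. Coloured points are the 1563 genes above both neighbours and the 1618 below both that passed the test, and they lie along the diagonal from Ccl2 at the lower left to Hpgd and Klhl24 at the upper right, with H2bc12 off it.

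The 5 lowest departures were those of Ccl2, Tnf, Ccl7, Ch25h and Gpr84. Ccl2, the chemokine that draws monocytes, stood at 9.35, 6.64 and 10.23 at 6, 12 and 24 h with DW and at 9.89, 6.28 and 11.08 with αKG. Both 12 h arrays lay below all 4 neighbouring arrays and below the 0 h values of 11.60 and 11.47. The departure of Ccl2 was -3.68 ± 0.20 (standard error; adjusted p = 3.08e-05, limma). Tnf, the inflammatory cytokine, stood at 8.86, 6.27 and 9.82 with DW and at 10.04, 6.36 and 10.06 with αKG, a departure of -3.38 ± 0.19 (adjusted p = 3.11e-05). The related chemokine genes Ccl7 and Ccl12 had departures of -3.09 ± 0.25 and -2.82 ± 0.30. Since Ccl2, Ccl7 and Ccl12 are close relatives, their probes may share sequence, and their values are less certain as separate genes.

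Each list count at 12 h is to be read beside the shares over all genes tested, 11.4% lower and 10.9% higher. Of 30 chemokines and cytokines tested, 11 (36.7%) were lower at 12 h and 7 (23.3%) higher, with a list median of -0.05 against -0.01 over all genes tested. Without the DW or the αKG array at 12 h, 4 and 3 passed as higher. Il1rn, which encodes the interleukin-1 receptor antagonist, was lower by a departure of -1.21 ± 0.10, and Cxcl14 by -1.01 ± 0.10. Outside that list, Ch25h, the enzyme that makes 25-hydroxycholesterol, fell from 8.02 at 6 h to 5.63 at 12 h with DW and stood at 8.74 at 24 h. With αKG it was 9.57, 6.07 and 9.23 (departure -3.04 ± 0.20). Gpr84, a receptor for medium-chain fatty acids, had a departure of -3.00 ± 0.19. Of 24 genes of NF-kB signalling and its feedback, 8 were lower and 4 higher. The lower ones included the inhibitor genes Nfkbie (-1.67 ± 0.10) and Nfkbia (-0.93 ± 0.07) and Tnip3 (-1.0 ± 0.07). Without either 12 h array 4 of the 24 passed as lower, and 2 (without DW) or 0 (without αKG) as higher.

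Early targets of ERK signalling were low together at 12 h. Of 18 genes induced by ERK, some of which feed back on it, 12 passed as lower, all below both neighbours in both arms, and 1 as higher. The median departure of the list was -1.03. Dusp6, a phosphatase that switches ERK off, stood at 8.79, 6.92 and 8.71 at 6, 12 and 24 h with DW. It was 9.79, 7.70 and 9.48 with αKG (departure -1.88 ± 0.09, adjusted p = 2.68e-05). Etv5, a transcription factor of the ETS family, had a departure of -2.01 ± 0.12, Ets2 of the same family -2.16 ± 0.17, and Spred2, an inhibitor of the Ras to ERK step, -2.34 ± 0.16. The urokinase receptor gene Plaur (-2.60 ± 0.19) and, outside the list, the urokinase gene Plau (-2.40 ± 0.09), which act together in pericellular proteolysis, were lower as well. Without either 12 h array in turn, 10 of the 18 still passed as lower.

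Among 24 immediate early and AP-1 genes, 6 (25%) were lower and 2 (8.33%) higher (median -0.23), against 11.4% and 10.9% of all genes tested. Fos, the AP-1 subunit that osteoclast formation requires, stood at 8.71, 7.23 and 9.95 with DW and at 8.82, 6.94 and 9.83 with αKG. Its departure was -2.24 ± 0.10 (adjusted p = 2.44e-05), and the 12 h values lay near the 0 h values of 6.98 and 7.01. Jun, its partner, had a departure of -1.55 ± 0.10 and Junb of -0.78 ± 0.12. Btg2, an antiproliferative gene, went the other way with 0.97 ± 0.10. Without the αKG array at 12 h, 3 of the 24 passed as lower.

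**Figure D2:**
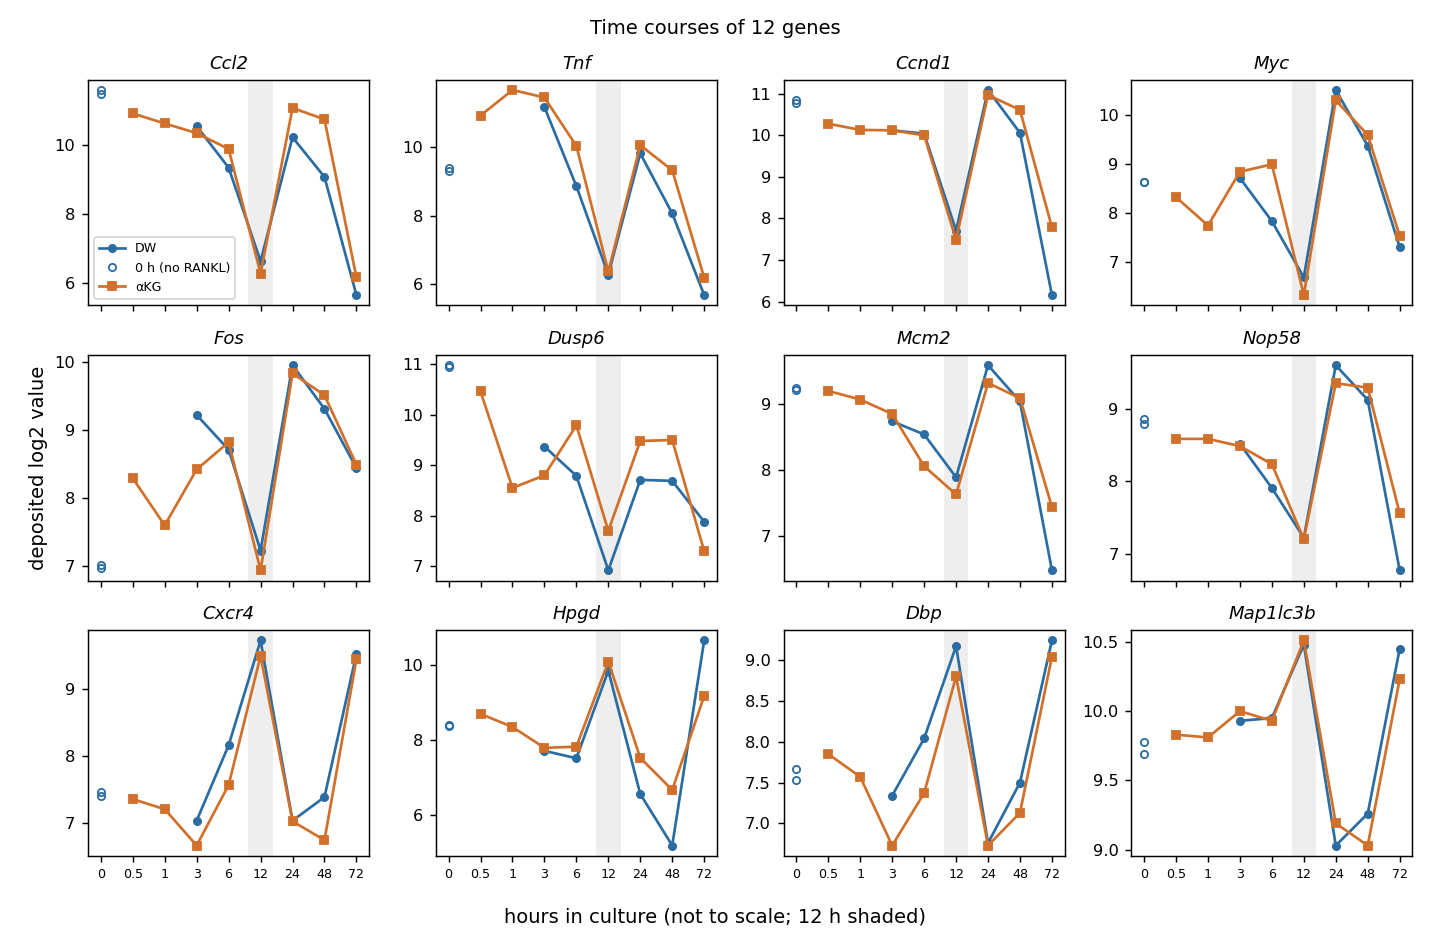
Deposited log2 values of 12 genes on all 16 arrays, with hours on the x axis (evenly spaced, not to scale), DW as circles, αKG as squares and the 0 h arrays as open circles. The shaded 12 h arrays of both arms are low for Ccl2, Tnf, Ccnd1, Myc, Fos, Dusp6, Mcm2 and Nop58 and high for Cxcr4, Hpgd, Dbp and Map1lc3b, and from 48 to 72 h all 12 genes move back to the 12 h side in both arms.

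Myc, cyclin D1 and the genes of ribosome production were low at 12 h. Myc, a transcription factor that drives ribosome production and growth, stood at 7.83, 6.68 and 10.51 at 6, 12 and 24 h with DW and at 8.99, 6.32 and 10.30 with αKG. Its departure was -2.90 ± 0.26 (adjusted p = 0.000215, limma), and its 12 h values were below the 0 h values of 8.63 and 8.62. Ccnd1, which encodes cyclin D1, stood at 10.04, 7.71 and 11.09 with DW and at 10.00, 7.49 and 10.97 with αKG. Its departure of -2.93 ± 0.08 had the smallest p of the genes named here (adjusted p = 7.73e-07). Mxd4, which encodes a repressor that competes with Myc for its partner Max, went the other way: 7.31, 8.51 and 5.57 with DW and 6.95, 8.47 and 5.66 with αKG, a departure of 2.12 ± 0.12.

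Of 32 genes of the list of Myc and ribosome biogenesis, 31 passed as lower, all of them below both neighbours in both arms, and 0 as higher. The median departure was -0.91 with DW and -0.77 with αKG. The list median was -0.45 for 12 h minus 6 h and -1.16 for 12 h minus 24 h, so the larger gap was to 24 h. Nop56 and Nop58, core proteins of the particles that methylate ribosomal RNA, had departures of -1.36 ± 0.10 and -1.57 ± 0.12. Nop58 stood at 7.91, 7.22 and 9.61 with DW and at 8.24, 7.2 and 9.36 with αKG, so 24 h was the highest time in both. The nucleolar genes Rrp1b (-1.37 ± 0.12), Nop2 (-1.23 ± 0.11), an RNA methyltransferase, and Nolc1 (-1.22 ± 0.12) followed. Without the DW or the αKG array at 12 h, 23 and 26 of the 32 passed as lower. The cytosolic ribosomal protein genes, the products that these factors assemble, differed little: 1 of 26 passed, Rps7 at -0.41 ± 0.11, with a list median of -0.11. Ribosomal protein genes have many near-identical pseudogenes, so array values for them are less certain.

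Polyamine and nucleotide synthesis showed the same trough. Of 21 genes of serine, one-carbon and nucleotide synthesis, 16 passed as lower and 0 as higher, with a median of -0.67, and 15 of the 16 lay below both neighbours. The list median was -0.32 for 12 h minus 6 h and -1.1 for 12 h minus 24 h, so the larger gap was to 24 h. Odc1, ornithine decarboxylase, stood at 8.52, 7.07 and 9.03 with DW and at 8.43, 7.11 and 8.90 with αKG (departure -1.63 ± 0.09). Srm, spermidine synthase, had a departure of -1.61 ± 0.11. Ctps, the CTP synthase, had -1.45 ± 0.10, and the purine pathway genes Ppat and Atic -1.24 ± 0.10 and -1.06 ± 0.11. In the fit of 12 arrays at all 6 times that both arms hold, 10 of the 21 passed as lower.

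The machinery for making and folding proteins was lower in part. Of 25 heat shock and chaperone genes 17 were lower and 0 higher (median -0.45), such as Hspd1, the mitochondrial HSP60 (-1.01 ± 0.11), Hsph1 (-0.94 ± 0.09) and Cct6a, a subunit of the chaperonin that folds actin and tubulin (-0.92 ± 0.08). Of 18 aminoacyl-tRNA synthetase genes 8 were lower and 1 higher, among them Tars (-0.63 ± 0.10) and Rars (-0.60 ± 0.09). Of 22 splicing genes 12 were lower, such as Srsf2 (-0.61 ± 0.06), and 1 was higher, Clk1, a kinase of splicing factors (0.79 ± 0.10). These counts were smaller without single arrays at 12 h: without DW the chaperones, synthetases and splicing genes gave 6, 0 and 4 lower calls, and without αKG 10, 4 and 6.

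DNA replication genes were low at 12 h and high at 24 h. Of 34 such genes, 32 passed as lower and 0 as higher, with a median departure of -0.68, and 22 of the 32 were below both neighbours in both arms. Mcm2, a subunit of the replicative helicase, stood at 8.54, 7.89 and 9.59 at 6, 12 and 24 h with DW and at 8.06, 7.63 and 9.32 with αKG. Its departure was -1.12 ± 0.09 (adjusted p = 0.000122). The helicase genes Mcm5 (-0.91 ± 0.09), Mcm6 (-0.92 ± 0.09) and Mcm3 (-0.86 ± 0.09), Dtl, an adaptor for degrading replication licensing factors (-1.24 ± 0.13), and Uhrf1, which maintains DNA methylation at forks (-1.06 ± 0.11), moved likewise. Mcm2 was -0.54 at 12 h against 6 h and -1.70 at 12 h against 24 h. Without the αKG array at 12 h, 20 of 34 passed as lower, and in the fit of 12 arrays 8 did.

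Of 31 genes of G2 and mitosis, 9 were lower and 1 higher, with a median departure of -0.26. The list median was -0.54 for 12 h minus 6 h and 0.03 for 12 h minus 24 h, against -0.22 and -1.18 in the replication list. Anln, Bub1 and Cdk1 had departures of -0.64 ± 0.10, -0.60 ± 0.10 and -0.49 ± 0.11. Ccnb2, a cyclin of mitosis, was the member called higher (0.57 ± 0.08), yet it was no peak: it stood at 9.96 and 9.71 at 6 and 12 h with DW and at 8.17 at 24 h. The count of lower mitotic genes was 0 without αKG at 12 h, 4 without DW at 12 h, 14 without αKG at 24 h and 16 without DW at 6 h, and it was 1 without the arm term.

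The promoters of replication genes were searched for the site of E2F factors, which switch on S-phase genes. Promoters were taken from RefSeq on GRCm38.p6 as 300 bases, 250 before the start and 50 after it, and the table holds 12077 of the genes tested. The motif searched was TTTCGCGC or TTTGGCGC on either strand, and matches may overlap. It was in 12 of 36 promoters (33.3%) of the replication list, in 205 of 15072 promoters (1.36%) of genes tested and in 0.813% of all 32851 promoters. Of all 34 tested members of the list 32 passed as lower at 12 h, and of the 12 that hold the motif 11 did. The median departure of those 12 was -0.72, and that of the 18 list members without the motif -0.66. Promoters of all genes below both neighbours at 12 h held it in 2.86% and those of genes above both in 1.29%. Among the 12 replication genes with the motif, only E2f2 did not pass as lower. To show the site in the genes of the trough, 4 promoters of named replication genes are given with the matches in capitals: Mcm3 (chr1:20820263-20820562, minus strand), Mcm5 (chr8:75109259-75109558, plus strand), Mcm6 (chr1:128359656-128359955, minus strand) and Uhrf1 (chr17:56304063-56304362, plus strand).
Mcm3: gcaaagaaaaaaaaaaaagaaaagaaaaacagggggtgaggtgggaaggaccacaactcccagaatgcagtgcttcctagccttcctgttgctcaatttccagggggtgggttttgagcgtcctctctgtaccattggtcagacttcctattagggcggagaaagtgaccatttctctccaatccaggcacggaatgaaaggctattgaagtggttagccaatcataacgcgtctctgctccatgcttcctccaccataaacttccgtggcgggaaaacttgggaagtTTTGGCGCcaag
Mcm5: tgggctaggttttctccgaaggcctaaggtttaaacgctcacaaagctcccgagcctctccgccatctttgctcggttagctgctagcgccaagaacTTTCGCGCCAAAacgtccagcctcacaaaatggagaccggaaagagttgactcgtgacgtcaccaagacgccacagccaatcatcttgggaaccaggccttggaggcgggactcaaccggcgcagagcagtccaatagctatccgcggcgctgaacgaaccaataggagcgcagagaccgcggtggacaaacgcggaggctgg
Mcm6: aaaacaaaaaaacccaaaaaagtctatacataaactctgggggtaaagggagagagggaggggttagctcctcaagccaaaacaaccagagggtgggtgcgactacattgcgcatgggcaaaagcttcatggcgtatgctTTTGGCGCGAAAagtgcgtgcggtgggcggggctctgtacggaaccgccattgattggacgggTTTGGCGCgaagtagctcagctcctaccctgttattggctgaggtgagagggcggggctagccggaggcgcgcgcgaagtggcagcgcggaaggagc
Uhrf1: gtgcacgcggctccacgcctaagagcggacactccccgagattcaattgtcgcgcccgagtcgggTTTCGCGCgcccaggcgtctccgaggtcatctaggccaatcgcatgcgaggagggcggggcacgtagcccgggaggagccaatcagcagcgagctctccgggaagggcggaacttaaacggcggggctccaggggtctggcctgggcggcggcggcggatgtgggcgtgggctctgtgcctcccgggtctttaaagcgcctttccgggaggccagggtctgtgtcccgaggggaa

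In the promoters of Mcm5 and Mcm6 matches on opposite strands overlap, which gives capital runs longer than 8 bases. A match says only that these letters occur there, and binding was not measured.

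The palindrome CACGTG, the E-box that Myc and other basic helix-loop-helix factors recognise, was in 6 of 31 promoters (19.4%) of the list of Myc and ribosome biogenesis and in 9.18% of promoters of genes tested. Promoters of genes below both neighbours at 12 h held it in 13.2% and those of genes above both in 9.68%. All 6 genes with it passed as lower, but so did 31 of all 32 tested members of the list. The E-box was also in 22.2% of promoters of the immediate early list (27 promoters) and in 14.3% of those of the ERK list (14 promoters). The 6 genes are Ltv1, Mybbp1a, Nop2, Pes1, Utp20 and Wdr43, of which Nop2 is shown as the one among the list's 6 smallest p-values (chr6:125131633-125131932, plus strand, motif in capitals).
Nop2: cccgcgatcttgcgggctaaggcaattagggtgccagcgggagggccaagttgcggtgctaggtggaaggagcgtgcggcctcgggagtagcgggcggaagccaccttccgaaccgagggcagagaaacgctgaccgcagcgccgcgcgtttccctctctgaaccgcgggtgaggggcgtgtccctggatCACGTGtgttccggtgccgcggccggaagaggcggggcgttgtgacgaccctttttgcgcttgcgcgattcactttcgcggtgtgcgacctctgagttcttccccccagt

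Another 3 motifs were searched on both strands. The cyclic AMP element TGACGTCA was in 3.43% of promoters of genes below both neighbours, in 2.14% of those above both and in 2.68% of those of genes tested. For the AP-1 site TGANTCA the shares were 5.34%, 5.39% and 5.87%, and for the CCAAT box (CCAAT) 38.8%, 39.2% and 36.9%. The CCAAT box was in 63.9% of promoters of the replication list.

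**Figure D3:**
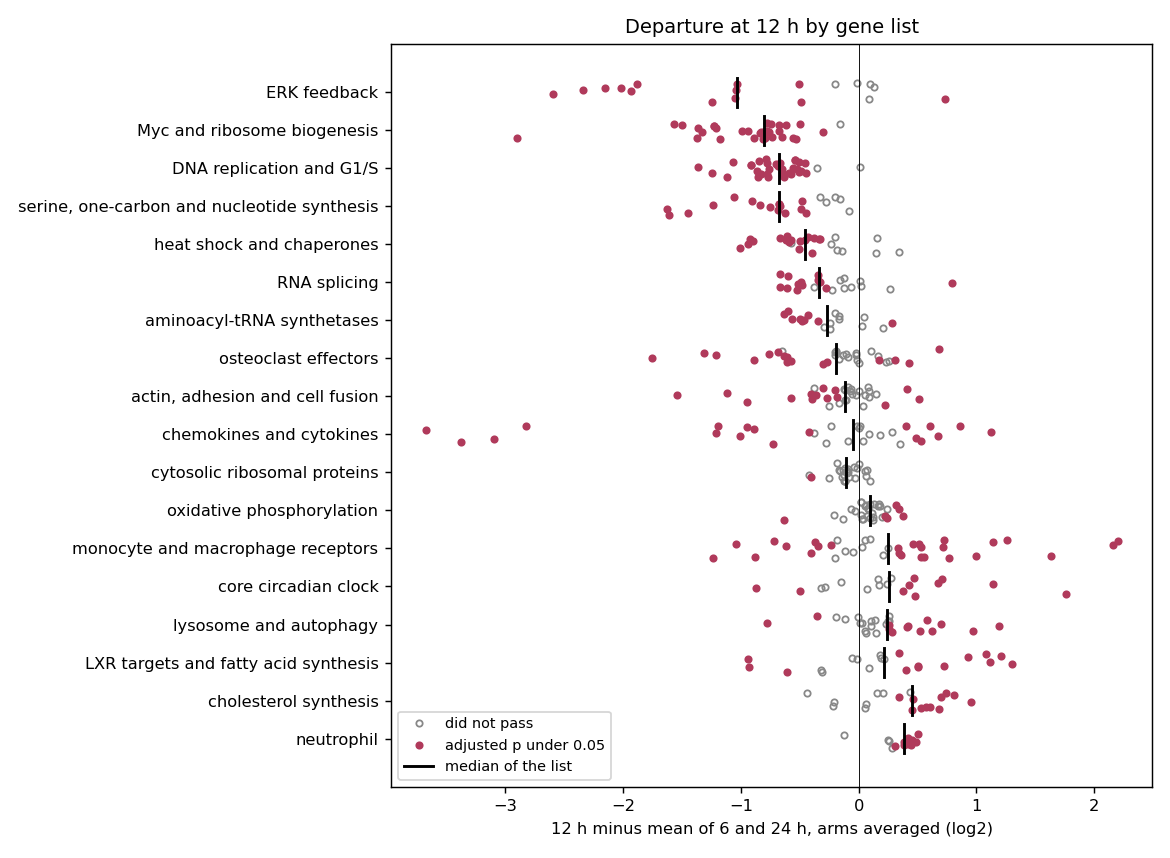
Departure at 12 h (log2, arms averaged) of the tested members of 18 gene lists, 1 point per gene, with filled points for genes with an adjusted p under 0.05, open points for the rest and a bar at the median of each list. The growth and ERK lists at the top lie left of 0, the ribosomal protein and oxidative phosphorylation lists near 0, and the receptor, clock, lysosome, lipid and neutrophil lists mostly right of it.

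Of 28 genes of RANK signalling and osteoclast transcription factors, 5 (17.9%) were higher and 4 (14.3%) lower at 12 h, with a median of 0.02. Over all genes tested the shares were 10.9% and 11.4%. Tnfrsf11a, the receptor for RANKL, stood at 8.51, 7.80 and 9.59 at 6, 12 and 24 h with DW and at 8.39, 7.72 and 9.34 with αKG, a departure of -1.20 ± 0.09 (adjusted p = 9.26e-05). Nfatc1, in contrast, was at 8.26, 8.79 and 8.29 with DW and at 7.81, 8.59 and 8.15 with αKG, a small peak (0.56 ± 0.10, adjusted p = 0.00391) that did not pass without one or the other 12 h array (adjusted p = 0.0548 without DW, 0.0957 without αKG). Syk, a kinase downstream of the immunoreceptors that assist RANK, was higher too (0.76 ± 0.11). Without the DW or the αKG array at 12 h, 2 and 1 of the 28 passed as higher. Of 19 genes that restrain osteoclast formation, 7 were lower and 4 higher, and 4 and 0 without the DW array at 12 h. The inhibitors of basic helix-loop-helix factors Id2 (-1.45 ± 0.11) and Id3 (-1.40 ± 0.15) and the Notch effector Rbpj (-0.89 ± 0.07) were lower, and Irf8, a macrophage factor that opposes NFATc1, was higher (0.88 ± 0.19; 8.43, 8.94 and 7.22 with DW, 8.21, 8.74 and 8.0 with αKG). The call of Irf8 was lost without the DW array at 12 h (adjusted p = 0.18) and in the fit of 12 arrays (0.0626).

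Osteoclast effector genes were at 12 h more often lower than higher against the mean of 6 and 24 h. Of 33 effectors, 12 were lower and 4 higher than the mean of their neighbours (median -0.19), and 9 of the 12 lay below both. The list median was -0.02 for 12 h minus 6 h and -0.21 for 12 h minus 24 h. Jdp2, an AP-1 partner, was at 6.63, 6.43 and 9.45 with DW and at 7.14, 5.84 and 8.33 with αKG (departure -1.76 ± 0.26). Ocstamp, needed for cell fusion, was at 5.69, 5.43 and 6.91 with DW and at 5.80, 5.53 and 6.55 with αKG (-0.76 ± 0.13). Itgav, the αv integrin chain, and Cd44, a hyaluronan receptor, had departures of -1.21 ± 0.15 and -1.32 ± 0.09. Acp5 (-0.20 ± 0.10, adjusted p = 0.217) and Ctsk (-0.09 ± 0.14, adjusted p = 0.738) did not pass, with 12 h between 6 and 24 h in both arms. Mmp9 passed as a bend, not a trough (-0.63 ± 0.12), and Mmp14, a membrane-bound matrix protease, stood at 9.56, 8.48 and 8.98 with DW and at 8.35, 7.23 and 6.95 with αKG (-0.61 ± 0.16), below both neighbours with DW only. Both calls were lost without the DW array at 12 h (adjusted p = 0.108 for Mmp9, 0.318 for Mmp14), without the αKG array (0.0531, 0.0584) and without the arm term (0.206, 0.574). The count of lower effectors was 4 without the DW array at 12 h and 8 without the αKG array, and that of higher ones 0 and 1.

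Adhesion genes were lower in part. Of 33 genes of actin, adhesion and cell fusion, 11 (33.3%) were lower and 3 (9.09%) higher, against 11.4% and 10.9% of all genes tested. Itga5, the fibronectin receptor chain, had a departure of -1.54 ± 0.08 and Adam8, a membrane protease, -1.12 ± 0.06. The next 3 genes, among the 15 lowest departures, are not in that list. Pdpn, a membrane glycoprotein of migrating cells, stood at 9.03, 7.92 and 10.92 with DW and at 9.0, 7.56 and 11.26 with αKG (-2.31 ± 0.13). Kcnn4, a calcium-activated potassium channel, had -2.29 ± 0.10, and Jag1, a Notch ligand, -2.27 ± 0.35, the largest error among the 30 leading genes. The lower genes of the adhesion list numbered 3 without the DW array at 12 h and 5 without the αKG array.

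Among the genes that peaked at 12 h, Hpgd, which breaks down prostaglandins, had the highest departure. It stood at 7.51, 9.86 and 6.55 at 6, 12 and 24 h with DW and at 7.82, 10.10 and 7.52 with αKG (departure 2.63 ± 0.15, adjusted p = 3.08e-05). Klhl24, an adaptor for protein ubiquitination, followed with 2.5 ± 0.14 and the lysosomal transporter gene Slc46a3 with 2.34 ± 0.19. Cxcr4, the receptor for the chemokine CXCL12, was at 8.16, 9.72 and 7.04 with DW and at 7.57, 9.49 and 7.03 with αKG (2.16 ± 0.12). Cd4, best known as the co-receptor of helper T cells, was at 6.79, 9.65 and 8.69 with DW and at 4.61, 8.27 and 7.18 with αKG (2.14 ± 0.15). Trp53inp1, a stress gene tied to p53 and autophagy, had 1.99 ± 0.10 and Spib, a transcription factor of the PU.1 family, 1.93 ± 0.13. The other leading genes were the orphan receptor gene Gpr162, the adhesion adaptor gene Sorbs3, the macrophage lectin gene Clec10a and 3 genes of lipid metabolism, with departures from 1.96 to 2.26. The lipid genes were Cyp27a1, which oxidises the side chain of cholesterol, Abcd2, which carries very long fatty acids into peroxisomes, and Agmo, which cleaves ether lipids. With Adgre4 and Mxd4 these make the 15 highest, and each lay above both neighbours in both arms, as their choice required.

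Of 35 monocyte and macrophage receptor genes, 17 were higher and 9 lower at 12 h than the mean of their neighbours, with a median of 0.25, and 13 of the 17 lay above both. The list median was 0.00 for 12 h minus 6 h and 0.46 for 12 h minus 24 h. Adgre4 (2.20 ± 0.21), an adhesion receptor, and Cxcr4 led the higher ones, followed by Tlr9 (1.64 ± 0.24), a sensor of DNA, and Ccr2 (1.26 ± 0.17), the receptor for the chemokine that Ccl2 encodes, both named after their values were seen. Ccr2 was at 7.32, 7.90 and 6.36 with DW and at 6.58, 8.01 and 6.51 with αKG, so receptor and ligand genes moved in opposite directions. Ccr1 (-1.24 ± 0.13), the lectin receptor Clec4e (-1.04 ± 0.12) and the scavenger receptor Msr1 (-0.88 ± 0.06) were lower. Without the DW array at 12 h 8 of the 35 passed as higher and 3 as lower, and without the αKG array 8 and 4.

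Receptors for growth factors and dying cells were among the higher genes. Mertk, which takes up apoptotic cells, stood at 8.22, 9.01 and 7.30 with DW and at 7.47, 8.71 and 7.39 with αKG (1.26 ± 0.15). Csf3r, the G-CSF receptor, had 1.17 ± 0.14 and Insr, the insulin receptor, 1.08 ± 0.13, while Pdgfb, a growth factor gene, was lower (-1.48 ± 0.11). In the list of 20 M-CSF and growth factor receptor genes, 6 (30%) were higher and 2 (10%) lower, against 10.9% and 11.4% of all genes tested. The membrane genes Tmem176a (1.35 ± 0.16), Tmem176b (1.30 ± 0.16) and Ly6i (1.66 ± 0.10) were higher, in a list of 14 with 8 higher and 1 lower. These have close relatives, and their probes may share sequence. Of the 14, 5 passed as higher without the DW array at 12 h and 4 without the αKG array.

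Of 18 genes of the circadian clock, 8 were higher and 2 lower, all 10 outside both neighbours, with a median of 0.26. Dbp, a clock output factor, stood at 8.04, 9.17 and 6.76 at 6, 12 and 24 h with DW and at 7.37, 8.80 and 6.73 with αKG (1.76 ± 0.13, adjusted p = 9.61e-05). The repressor genes Nr1d2 (1.14 ± 0.11) and Nr1d1 (0.67 ± 0.11) and Per3 (0.70 ± 0.13) were higher. Bhlhe40, which represses the clock and is induced by many stimuli, was lower (-0.87 ± 0.15). The core activators Arntl (0.24 ± 0.11, adjusted p = 0.164) and Clock (-0.15 ± 0.10, adjusted p = 0.328) did not pass. Without the DW array at 12 h, 4 of the 18 passed as higher, and without the αKG array 2.

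Of 28 genes of lysosome and autophagy, 11 were higher at 12 h and 2 lower (median 0.24). Map1lc3b, which encodes a protein of the autophagosome membrane, stood at 9.95, 10.48 and 9.03 with DW and at 9.93, 10.51 and 9.19 with αKG (0.97 ± 0.07, adjusted p = 0.000102). Ulk1, the kinase that starts autophagy, had 1.19 ± 0.10 and Gabarapl1 0.62 ± 0.10, while Ctsl, a lysosomal protease, was lower (-0.78 ± 0.08). In the list of ATF4 and the amino acid response, the nutrient stress gene Sesn2 was higher (0.97 ± 0.10), and Slc3a2, the shared chain of amino acid exchangers, lower (-0.73 ± 0.07). Without the DW or the αKG array at 12 h, 3 and 4 of the 28 passed as higher.

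Lipid genes fell into 2 patterns. In the list of LXR targets and fatty acid synthesis, 10 of 21 were higher and 3 lower. Apoe, which carries lipid out of macrophages, stood at 8.18, 9.19 and 7.87 with DW and at 7.70, 9.25 and 7.91 with αKG (1.30 ± 0.12). The cholesterol exporters Abca1 (1.08 ± 0.16) and Abcg1 (1.12 ± 0.20) and the desaturase Scd1 (1.21 ± 0.18), named after their values were seen, peaked too, each with a higher departure with αKG (1.47, 1.52 and 1.64) than with DW (0.69, 0.71 and 0.78). Nr1h3, the gene of LXRα itself, was lower (-0.94 ± 0.10). Of 19 cholesterol synthesis genes, 11 were higher and 0 lower, but only 2 lay above both neighbours in both arms. With 12 h interpolated on linear instead of log time, 5 of the 19 were higher and 2 lower. Hmgcs1 was at 9.83, 9.76 and 8.40 with DW and at 9.75, 9.73 and 8.05 with αKG, so that 6 and 12 h were alike and 24 h low. Without the αKG array at 12 h, 5 LXR and 5 cholesterol genes passed as higher, and without the DW array 9 and 8.

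Immune recognition genes had smaller departures. In the list of 30 interferon-stimulated genes, only 5 passed and lay above both neighbours in both arms. The median departure was 0.33, with -0.07 for 12 h minus 6 h and 0.70 for 12 h minus 24 h. Counting bends too, 10 were higher and 1 lower than the mean of their neighbours, with the guanylate-binding protein gene Gbp3 at 1.02 ± 0.16. That count ranged from 1 without the DW array at 12 h (3 without αKG at 12 h, 6 without αKG at 6 h, 16 without DW at 6 h) to 23 without the αKG array at 24 h, and was 1 in the fit of 12 arrays. Of 12 genes of antigen presentation on MHC class I, 5 were higher, such as H2-K1 (0.31 ± 0.07), and 0 were lower, and of 13 of class II and costimulation, 4 were higher and 0 lower. Without either 12 h array 0 class I genes passed as higher, and without the DW array 1 class II gene did. Among energy genes, 5 of 32 oxidative phosphorylation genes (15.6%) were higher and 1 (3.12%) lower (Cycs, cytochrome c, -0.64 ± 0.08). Of 8 genes encoded in mitochondrial DNA 0 passed, with a median of 0.01. Of 22 genes of the tricarboxylic acid cycle, which α-ketoglutarate belongs to, 5 (22.7%) were lower and 3 (13.6%) higher. Idh3a, a subunit of the enzyme that makes α-ketoglutarate, was at -1.14 ± 0.10. In glycolysis 4 of 17 (23.5%) were lower and 3 (17.6%) higher. Its glucose transporter Slc2a1 was at -0.97 ± 0.13 and the regulator Pfkfb3 at 0.82 ± 0.11. All genes tested gave 11.4% lower and 10.9% higher. Without either 12 h array, at most 1 gene of each of these 3 energy lists passed in each direction. Gapdh (-0.08 ± 0.05, adjusted p = 0.295) and Actb (-0.17 ± 0.07, adjusted p = 0.116) did not pass.

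Markers of other marrow cells were present at 12 h at various levels. Of 7 neutrophil markers all 7 were above the dim limit on both 12 h arrays, between 5.40 and 9.32. Of 13 neutrophil genes tested 9 (69.2%) were higher and 0 lower at 12 h, against 10.9% and 11.4% of all genes tested. Of the 9, 6 lay above both neighbours. The list median was 0.20 for 12 h minus 6 h and 0.60 for 12 h minus 24 h. Mpo, myeloperoxidase, stood at 7.75, 7.46 and 6.06 with DW and at 7.62, 7.27 and 6.01 with αKG, and S100a8, a calcium-binding protein of neutrophils, at 8.43, 8.64 and 7.99 and at 8.22, 8.59 and 8.03. The linear values of the list of 14 summed to 2841, 2949 and 1805 at 6, 12 and 24 h with DW and to 2641, 3004 and 2054 with αKG. Without one or the other 12 h array 0 neutrophil genes passed as higher. Mast cell markers were all at or under 4.03 at 12 h. Of 4 markers of T and NK cells, Cd3e, Cd3g and Cd3d were under the limit on at least 1 of the 12 h arrays and Nkg7 stood at 5.70 and 5.47. Above the limit on both 12 h arrays were both megakaryocyte markers (up to 6.68), all 3 endothelial (up to 7.15), all 3 dendritic (up to 5.10), all 3 B cell (up to 6.27) and 2 of 4 stromal markers (up to 6.57). Among 5 B cell genes tested 3 were higher, Cd79b by 0.89 ± 0.13 (5.36, 6.27 and 5.37 with DW, 5.09, 5.73 and 4.63 with αKG) and Blnk by 0.50 ± 0.09. That count was 1 without the DW array at 12 h, 2 without the αKG array and 1 without the arm term. The summed level of the 10 B cell genes was 1063, 1460 and 1091 with DW and 764, 1168 and 910 with αKG. In bulk RNA fewer cells of a type and less RNA per cell cannot be told apart, and the part of these cells in the other results was not tested.

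The size of the departure differed between the arms for some genes, which has no test since each arm has 1 array per time. Thbs1, encoding the matrix protein thrombospondin 1, had a departure of 0.78 with DW and 2.02 with αKG, and Ednrb, the endothelin B receptor, 0.87 and 2.04. The chemokine genes Ccl12 and Ccl7 had departures of -1.99 and -2.49 with DW and of -3.66 and -3.70 with αKG. The widest gap was in the histone gene H2bc12, with 0.68 with DW and -1.74 with αKG, a member of a family of near-identical genes whose array values are less certain.

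Part of the 12 h pattern was seen again at 72 h, on arrays that the departure did not use. At 72 h against 48 h, fitted on those 4 arrays with arm and time as factors (limma, 1 residual degree of freedom), 877 genes (5.65%) rose and 1228 (7.91%) fell. This comparison was added after the 12 h values were seen. Of the 1563 genes above both neighbours at 12 h, 619 (39.6%) rose from 48 to 72 h and 6 fell. Of the 1618 genes below both at 12 h, 845 (52.2%) fell and 11 rose. The median change was 0.47 in the first set, -0.62 in the second and -0.01 over all genes tested. In both arms the change was above 0 for 83.6% of the first set, against 33.2% of all genes, and below 0 for 84.2% of the second, against 36.5%. Without the arm term, which leaves the arm differences in the residual, 32 genes of the first set rose and 29 of the second fell.

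Relative to the 0 h arrays, the genes high at 12 h had medians of 0.45, -0.20, -0.16 and 0.27 at 12, 24, 48 and 72 h with DW. With αKG they had 0.46, -0.14, -0.17 and 0.29. The genes low at 12 h had -0.56, 0.26, 0.06 and -0.63 with DW and -0.53, 0.15, 0.10 and -0.48 with αKG. Both sets stood on the same side of 0 h at 12 and 72 h and on the other side at 24 h. The order of 12 h against 24 h was set by the choice of these genes, whereas the 48 and 72 h arrays had no part in it.

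**Figure D4:**
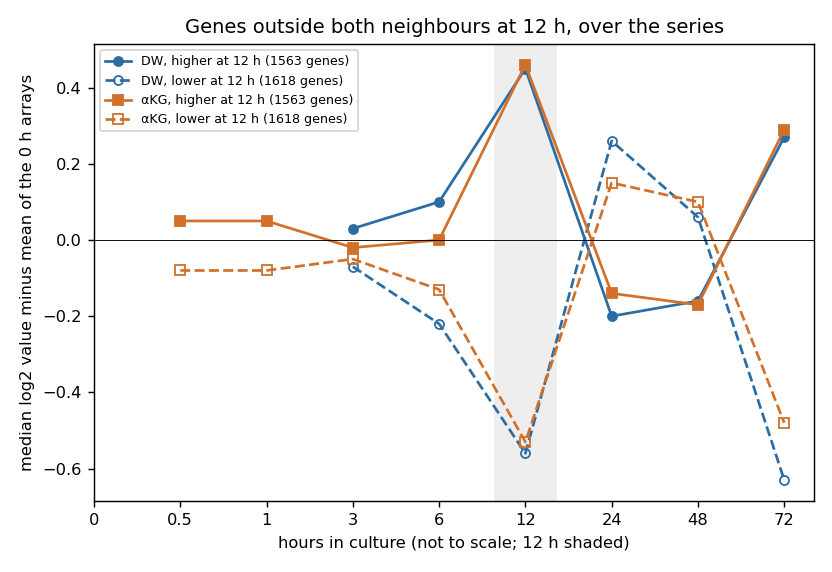
Median log2 value minus the mean of the 0 h arrays for the 1563 genes above both neighbours at 12 h (filled, solid lines) and the 1618 below both (open, dashed lines), by hours in culture (evenly spaced, not to scale), with DW as circles and αKG as squares. Both sets are farther from 0 at 12 h than at 6 h, on the other side of it at 24 h and back on the 12 h side at 72 h in both arms, with medians of 0.27 and 0.29 for the higher set.

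All 15 leading genes that peaked at 12 h also rose from 48 to 72 h, by 1.69 to 4.10. Hpgd went from 5.17 to 10.67 with DW and from 6.66 to 9.18 with αKG (change 4.01, adjusted p = 0.0119), and Cxcr4 from 7.39 to 9.52 and from 6.75 to 9.44 (2.42, adjusted p = 0.00234). Of the 15 leading genes that were low at 12 h, 14 fell. Ccl2 went from 9.08 to 5.66 with DW and from 10.75 to 6.17 with αKG (-4.00, adjusted p = 0.00234), and Ccnd1 from 10.06 to 6.16 and from 10.61 to 7.79 (-3.36). Jag1 was the exception (-0.37, adjusted p = 0.527).

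By list, 72 h was lower than 48 h for 30 of 32 genes of the Myc and ribosome biogenesis list (median -1.23), 31 of 34 DNA replication genes (-1.33), 16 of 21 genes of serine, one-carbon and nucleotide synthesis (-1.22) and 16 of 25 chaperones (-0.67). Of 35 macrophage receptor genes 18 rose from 48 to 72 h and 4 fell (median 0.57), and of 28 lysosome and autophagy genes 9 rose and 1 fell (0.33). Over all genes tested 5.65% rose and 7.91% fell.

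Some lists had other counts at 72 h than at 12 h. Beside the 5.65% of all genes tested that rose and the 7.91% that fell, 0 to 2 calls in lists of this size say little. Osteoclast effectors, of which 12 were lower at 12 h, rose from 48 to 72 h in 24 of 33 cases (median 0.82). Ctsk, for example, went from 11.67 to 12.58 with DW and from 10.18 to 11.50 with αKG (1.12, adjusted p = 0.00489). Of 18 genes of the ERK list 5 fell and 0 rose (median -0.38), and of 13 neutrophil genes 0 rose and 2 fell. Of 30 interferon-stimulated genes 7 fell and 0 rose, and of 19 cholesterol synthesis genes 5 fell and 0 rose. Tnfrsf11a stood at -0.51 (adjusted p = 0.0834), Jun at -0.75 (adjusted p = 0.094) and Nfkbia at -0.18 (adjusted p = 0.331), and none of these passed.

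**Figure D5:**
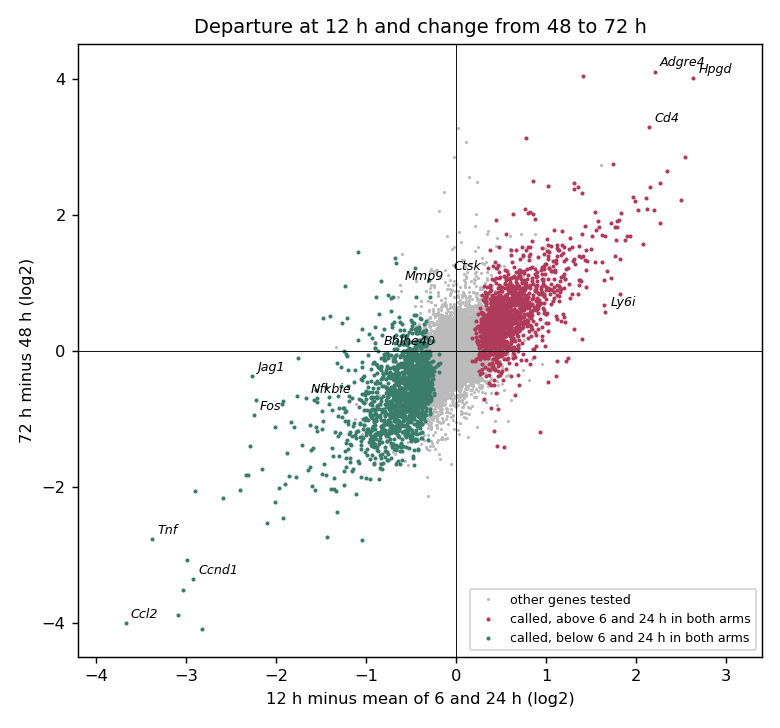
Departure at 12 h (log2, x axis) and change from 48 to 72 h (log2, y axis), both averaged over the arms, for 15526 genes, with the genes above and below both neighbours at 12 h coloured. Adgre4 and Hpgd are at the upper right and Ccl2 at the lower left, while Jag1, Bhlhe40 and Mmp9 lie off the diagonal, and no array is shared between the axes.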

How the data were processed

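Log2 values of 16 one-colour arrays were analysed as deposited. Per the labels' protocols, the authors made sense cDNA from total RNA, fragmented it and added biotin by terminal transferase. For background correction, summarisation and normalization the method is not given in the sources used. The log2 scale was inferred from the range of the deposited values (0.61 to 13.25), and array medians lay between 4.84 and 4.93. Precision is limited by having few arrays, and no batch is named in the labels.

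In the platform annotation 23521 of 33793 features carried a single gene symbol, 1814 carried more and 8458 were unnamed. Features with 1 symbol were kept, with the feature of the highest mean for each of 22180 genes. The lowest 30% by mean were left out, which left 15526. The 6 arrays were fitted with arm and time as factors (2 residual degrees of freedom) in limma 3.58.1 on R 4.3.3, with an intensity trend and Benjamini-Hochberg adjustment over all genes tested, threshold 0.05. On simulated data for the 12 h departure, 200 of 15526 genes were changed. There 64% of log2 changes of 1 and 91% of changes of 2 were recovered, with 3 false calls. The simulated noise was independent between arrays. It held no effect shared by both arms at a given time, so false calls from such an effect were not measured.

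The comparison, the 50 gene lists (1185 members, 1000 of them tested) and the markers were chosen with earlier results of these data known. Genes were named by rule: the 15 highest and 15 lowest departures among genes that passed and lay outside both neighbours (predicted, clone-named, small RNA, receptor segment and olfactory genes skipped), up to 6 members of each list by smallest p, the 5 highest and 5 lowest differences between arms, and 8 anchors, Acp5, Ctsk, Mmp9, Mmp14, Nfatc1, Irf8, Slc7a11 and Tmem176b. The fixed cell markers, genes holding a promoter motif, and Gapdh, Actb, Arntl and Clock, which did not pass, were named besides. Tlr9, Ccr2, Abca1, Abcg1 and Scd1 were added after their values were seen, and no value is given here for Slc7a11. Alternatives varied the filter, scaling, trend, arm term, arrays fitted, interpolation and feature per gene, and left out each array in turn.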

Additional observations from a re-analysis of the deposited data

Results flagged for a closer look

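Among the genes named by rule, 7 had departures at 12 h of opposite sign in the arms. All of these but Ctsk were picked for the widest gaps between arms, a choice that makes opposite signs likely. Over all genes tested 71.1% had the same sign in both. The difference was not tested, since each arm has 1 array per time. H2bc12, a histone gene, differed by -2.41 (αKG minus DW; 0.68 with DW, -1.74 with αKG), the nucleoside transporter gene Slc28a2b by -1.35 (0.64, -0.71) and Foxh1, a transcription factor gene, by -1.32 (0.52, -0.81). Pramel11 differed by 1.26 (-0.55 with DW, 0.71 with αKG), the defensin gene Defa26 by 1.19 (-0.52, 0.67) and Speer4a by 1.16 (-0.36, 0.80). Ctsk, the cathepsin K gene of osteoclasts, differed by 0.54 (-0.36, 0.18). H2bc12, Defa26, Speer4a and Pramel11 belong to families of close copies, and their array values are less certain.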

How the results depend on the processing

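With 2 residual degrees of freedom the counts rest on few arrays. Leaving out each of the 6 arrays in turn gave 1193 to 4034 genes for the departure at 12 h (3452 with all 6) and 1175 to 3644 for those outside both neighbours (3181 with all). The same gave 164 to 2236 for 12 h against 6 h (1307 with all) and 2242 to 4726 for 12 h against 24 h (4260 with all). The lowest values came without a 12 h array. Without DW or αKG at 12 h, 276 and 164 genes passed against 6 h, and 2242 and 2388 against 24 h. Against 6 h the count was also 462 without αKG at 6 h, and 2236 or 2229 without αKG or DW at 24 h.

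Without the arm term 2266 genes departed at 12 h and 338 passed against 6 h, and 32 and 29 of the genes above and below both neighbours rose and fell from 48 to 72 h. With 6 h and 24 h pooled as 1 level, 70 genes departed, all 70 outside both neighbours, because the difference between those times goes into the residual. That fit gives no count against 6 or 24 h alone. For 12 h against 6 h, 654 genes passed without an intensity trend and 468 in the fit of 12 arrays. Under the other filters, scalings and fits the departure count lay between 2354 and 3554. Scaling did not turn the balance of directions: 1763 higher and 1765 lower after quantile normalization. Of the 262 called genes that could be named, 26 kept their call in every fit, 236 lost it in at least 1 and 0 changed sign. The fit with 6 h and 24 h pooled as 1 level by itself lost all 236, the fit of 12 arrays lost 73 and the fit without the arm term 53. With 1 array per arm and time, the spread between cultures of 1 arm was not measured.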
